A study of Mus musculus with 18 samples.

Results

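The vascular endothelial growth factor (VEGF) ligands are secreted dimers that act on receptor tyrosine kinases of endothelial cells. VEGF-A, VEGF-B and placental growth factor act mainly on blood vessels, whereas VEGF-C and VEGF-D act on VEGFR-3 (Flt4) of lymphatic endothelium. VEGF-C is secreted as a pro-form of low activity, and the protease ADAMTS3, assembled with the matrix protein CCBE1, cleaves it to the active form. In the intestinal villus, VEGF-C maintains the lacteal, the lymphatic vessel that takes up dietary fat. The genes described here are the 5 ligand genes Vegfa, Vegfb, Vegfc, Figf (the older symbol of Vegfd, which encodes VEGF-D) and Pgf, and the 2 genes of VEGF-C processing, Ccbe1 and Adamts3. They were chosen by name, and all 7 were among the 23238 gene symbols of the count tables.

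Their RNA was measured in 18 libraries of sorted cells from adult C57BL/6J mice. PDGFRb+ intestinal stromal cells (IntSCs) and lacteal lymphatic endothelial cells (LECs) came from WT mice, whose genotype is given as PDGFRb+-CreERT2-Tomato+, and from LATS1/2 KO mice, whose genotype adds Lats1f/f and Lats2 f/f to the same alleles. All 4 groups thus carried the tamoxifen-inducible Cre and the tdTomato reporter, and the floxed alleles of the Hippo kinases Lats1 and Lats2 distinguished KO from WT. IntSCs gave 6 WT and 5 KO libraries, and LECs gave 4 WT and 3 KO libraries. With its reporter mice, the study saw Pdgfrb-driven Cre activity in fibroblasts, pericytes and some smooth muscle cells, so the IntSCs are a mixture. The LECs are taken here not to be a target of the Cre. The labels do not tie libraries to mice. The study's supplement gives mice per group in numbers that match the libraries, pooled from several experiments that the labels do not assign to libraries, so the spread behind the p-values below may include that between experiments. Total counts ranged from 5361250 to 10549233 per library, and values are CPM, read counts scaled to a common library total with a single set of TMM factors over all libraries.

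The label KO could not be checked with these counts. The labels name QuantSeq, a kit read here as one that captures the 3′ ends of transcripts, so reads of a floxed gene need not fall when exons upstream of that end are deleted. The catalogue number beside it may be that of another kit, and if the libraries covered whole transcripts the counts of Lats1 and Lats2 would bear on the label. Lats2 read 41.6 to 113 CPM in WT IntSCs and 80.1 to 130.2 CPM in KO IntSCs, and Lats1 read 0 to 30.1 CPM in WT IntSCs and 12.9 to 21.2 CPM in KO IntSCs. The cell types were clear from their markers. The summed level of 7 fibroblast markers was 6855 to 15112 CPM in IntSCs and 275 to 1934 CPM in LECs, and that of 7 LEC markers was 201 to 417 CPM in IntSCs and 8210 to 14350 CPM in LECs. IntSC libraries held reads for 11848 to 15926 genes, WT LEC libraries for 11490 to 12059 and KO LEC libraries for 10576 to 11001.

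The DNA before the transcription start is shown for Vegfc, the only one of the 7 genes that passed the test between KO and WT IntSCs, and for Figf, the gene of its closest relative in function, which did not. Sequences are from RefSeq (GRCm38.p6, the mm10 assembly), on the plus strand, 5′ to 3′, with CpG dinucleotides in capitals. The Vegfc stretch is the 250 bases before the RefSeq start, chr8:54077282-54077531. The Figf stretch is the 106 bases that lie before both the RefSeq and the GENCODE start, chrX:164373272-164373377.
Vegfc: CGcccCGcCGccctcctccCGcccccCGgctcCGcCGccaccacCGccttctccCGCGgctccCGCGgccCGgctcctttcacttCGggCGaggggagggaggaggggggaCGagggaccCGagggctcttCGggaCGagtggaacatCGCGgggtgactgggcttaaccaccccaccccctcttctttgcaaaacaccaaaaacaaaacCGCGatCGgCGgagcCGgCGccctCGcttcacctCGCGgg
Figf: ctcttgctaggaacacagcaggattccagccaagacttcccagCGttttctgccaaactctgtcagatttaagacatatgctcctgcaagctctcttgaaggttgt
The 2 starts differ in base composition. The 300-base promoter window of Vegfc (250 bases before the start and 50 after it) held 35 CpGs, more than 93.0% of the 32851 mouse promoters in the table, whereas that of Figf held 2, more than 14.1% of them. The median promoter held 7 CpGs. Neither window held the TEAD motif GGAATG, which 14.7% of all promoters hold on either strand, the AP-1 motif TGANTCA (7.81%) or the hypoxia response motif ACGTG (19.6%). Among the other genes, the hypoxia motif was present in 1 of the 2 windows of Vegfa and in that of Adamts3, and no window of Vegfa, Vegfb, Pgf or Adamts3 held GGAATG or the AP-1 motif. The shorter TEAD motif GGAAT, the start of the longer motif, was added after the first search and is held by 38.7% of all promoters. It was present in the window of Figf and in 1 of the 2 windows of Vegfa, and not in the other windows, that of Vegfc included. Sequence further upstream was not searched, nor was Ccbe1. The study reports several GGAAT sequences in the promoter locus of Vegfc. It also reports TEAD binding there, by chromatin immunoprecipitation in mouse embryonic fibroblasts, at a site upstream of the window searched here.

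In the mm10 annotation (GENCODE vM21 gene bounds), Vegfc spans 109 kb on the plus strand of chr8:54077606-54187096 and Figf 29.3 kb on the plus strand of chrX:164373378-164402650. On the minus strand lie Vegfa (chr17:46016993-46032369), Vegfb (chr19:6982473-6987651), Pgf (chr12:85166635-85177790), Ccbe1 (chr18:66045302-66302741) and Adamts3 (chr5:89677087-89883334). No annotated gene overlaps Vegfa, Vegfb, Vegfc, Figf or Pgf on either strand. The 3 annotated genes that overlap Ccbe1 and the 2 that overlap Adamts3 are non-coding and had no row of their own in the count tables.

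Vegfc was higher in KO than in WT IntSCs. Its level in the 6 WT IntSC libraries was 0.633 CPM at the lowest, 10.3 at the median and 14.5 at the highest. In the 5 KO IntSC libraries it was 55.4, 17.4, 109.7, 65.7 and 56.8 CPM. Every KO library lay above every WT library, an order seen for 1.63% of the 12421 genes tested. The means were 9.73 ± 4.92 CPM (SD, n = 6) in WT and 61.0 ± 32.9 CPM (SD, n = 5) in KO IntSCs, a 6.26-fold difference of means. By edgeR's quasi-likelihood test the log2 fold change was 2.64 ± 0.51 (SE), with a 95% interval from 1.58 to 3.71 and an adjusted p of 0.00861. In this comparison 183 of 12421 genes passed the threshold (1.47%), 106 of them higher in KO (0.853%), and Vegfc was the 1 of the 6 tested genes of the set that passed.

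The size of the Vegfc difference varied between libraries. KO IntSC library 2 was the lowest of its group at 17.4 CPM, from 127 reads, and library 3 the highest at 109.7 CPM, from 912 reads, which is 6.30 times as much. WT IntSC library 6 held 3 Vegfc reads, whereas the other 5 WT libraries held 68 to 86. That library held 259 reads of Vegfa, 72 of Figf and 147 of Pgf, and it stood apart in its markers. It was the highest WT IntSC library for 8 of the 10 marker lists (epithelial markers summed to 120 CPM, against 0 to 18 CPM in the others, and blood endothelial markers to 2744 CPM) and the lowest for fibroblast (9816 CPM) and pericyte (267.5 CPM) markers and for Pdgfrb (215 CPM). It also had the lowest total count and the highest share of Rn45s, the ribosomal RNA precursor (24.4%). Without it the log2 fold change of Vegfc was 2.41 (adjusted p = 0.00236). Leaving out 1 library at a time, the log2 fold change stayed between 2.32 and 2.88, and the call was lost without KO IntSC library 3 (2.32, adjusted p = 0.0504). It was also lost with limma-voom (2.72, adjusted p = 0.0914) and when all 4 groups shared a single estimate of the spread (2.64, adjusted p = 0.452). The plot of Vegfc under each way of processing shows these estimates.

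**Figure D1:**
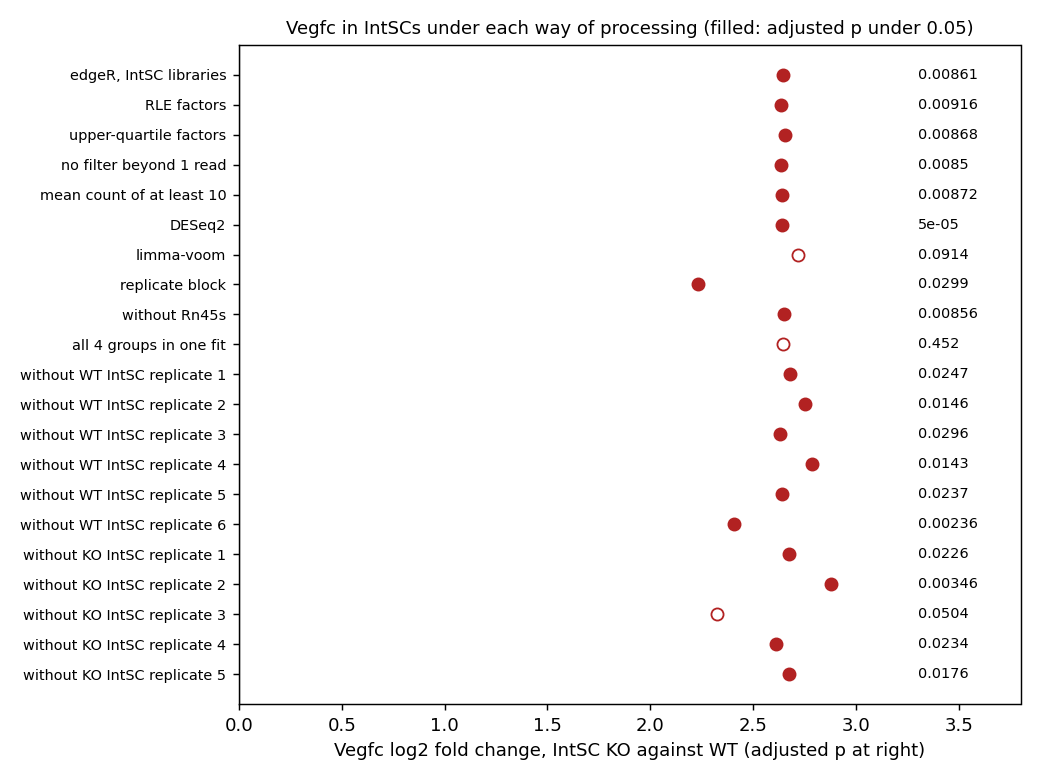
log2 fold change of Vegfc between KO and WT IntSCs (x axis) under each way of processing and with each library left out (y axis), with the adjusted p at the right. Filled circles passed an adjusted p of 0.05. All estimates lie between 2.23 and 2.88, and the 3 open circles are limma-voom, the fit of all 4 groups and the fit without KO IntSC library 3.

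Figf, the gene of the other lymphangiogenic ligand, did not pass the test in IntSCs. WT IntSC libraries read 9.64 CPM at the lowest, 18.9 at the median and 51.2 at the highest, and KO IntSC libraries read 32.7, 36.5, 44.1, 40.6 and 39.2 CPM. All 5 KO libraries lay within the range of WT only because WT IntSC library 4 was above them all. They lay above the other WT libraries, which read at most 32.1 CPM. The means were 24.3 ± 15.3 and 38.6 ± 4.30 CPM, and the log2 fold change was 0.67 ± 0.37 (SE), with an interval from -0.11 to 1.44 and an adjusted p of 0.615. With 1 library left out it ran from 0.50 to 1.02 (edgeR adjusted p from 0.218 to 0.805), highest without WT IntSC library 4. The spread was uneven, since the coefficient of variation over libraries was 62.7% in WT and 11.1% in KO.

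Vegfa, the main growth factor of blood vessels, was the ligand gene with the least relative spread in WT IntSCs (coefficient of variation 23.2%), at 29.7 CPM at the lowest, 45.9 at the median and 54.6 at the highest. KO IntSC libraries read 57.2, 22.6, 68.2, 85.8 and 32.6 CPM, with 3 of them above and 1 below all WT libraries. The log2 fold change was 0.29 ± 0.32 (SE), the interval ran from -0.37 to 0.95 and the adjusted p was 0.900. A 2-fold difference in either direction lay outside this interval.

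Vegfb, a ligand of VEGFR-1 linked to fatty acid handling, and Pgf, another VEGFR-1 ligand, were lower on average in KO IntSCs, and neither passed. Vegfb averaged 35.8 ± 21.7 CPM in WT and 27.6 ± 9.16 CPM in KO (log2 fold change -0.37 ± 0.37, adjusted p = 0.880). WT IntSC library 3 stood at 78.3 CPM for Vegfb, against 20.5 to 36.0 in the other WT libraries. Pgf averaged 32.2 ± 16.3 CPM in WT and 22.0 ± 8.77 CPM in KO (log2 fold change -0.55 ± 0.45, adjusted p = 0.820). The same WT IntSC library 3 was the lowest of its group for Pgf, at 5.69 CPM. The ranges of WT and KO overlapped for both genes.

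Neither processing gene was called in IntSCs. Ccbe1, which encodes the cofactor of VEGF-C cleavage, was read at 5.23 CPM at the lowest, 15.9 at the median and 20.9 at the highest in WT IntSCs, and at 18.8, 23.3, 18, 6.72 and 8.51 CPM in KO IntSCs. The log2 fold change was 0.06 ± 0.51 (SE) with an interval from -1.0 to 1.12 and an adjusted p of 0.991, so the interval reaches 2-fold in both directions. Adamts3, the gene of the cleaving protease, was close to the detection limit. It was read 18, 0, 1, 0, 46 and 5 times in WT and 15, 0, 5, 0 and 1 times in KO IntSC libraries. It failed the filter on low counts, and a two-sided exact permutation test on log2(CPM + 1) gave p = 0.416, where the smallest p that 6 against 5 libraries allow is 0.00433.

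A further list held 10 protease genes, chosen for a possible link to VEGF-C or VEGF-D, all tested for a difference in RNA. Whether each protease acts on these ligands was not tested. The list held 0 genes that rose and 1 that fell in KO IntSCs. Its median was -0.04 on the log2 scale, against 0.00 over all genes tested. The gene that fell was Pcsk6, which encodes a proprotein convertase (PACE4) of the furin family. Pcsk6 was read at 187 CPM at the lowest, 268 at the median and 349 at the highest in WT, and at 84.2, 106.7, 82.1, 153.4 and 86.4 CPM in KO. Every KO library lay below every WT library, as for 1.20% of all genes tested, and the log2 fold change was -1.37 ± 0.22 (adjusted p = 0.00130), where 0.620% of genes were called lower.

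The receptors were also measured. Of the 5 genes for VEGF receptors and co-receptors, 0 passed in IntSCs in either direction (median log2 fold change 0.67, 4 of 5 above 0). Flt1 (VEGFR-1) had 0.99 ± 0.33 (adjusted p = 0.174), Kdr (VEGFR-2) had 0.67 ± 0.33 (adjusted p = 0.516) and Flt4 (VEGFR-3) had 1.29 ± 0.84 (adjusted p = 0.714), and the co-receptors Nrp1 and Nrp2 had -0.29 and 0.42. Of 18 tested YAP/TAZ target genes, which the LATS kinases restrain, 2 rose (Amotl2, log2 fold change 2.09, and Crim1, 1.52) and 0 fell, with a median of 0.56. Of 12 hypoxia response genes, genes induced, like Vegfa, under low oxygen, 1 rose (Ndrg1, 1.14) and 0 fell, with a median of 0.26. In all these lists the share called is to be read against 1.47% of all genes.

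Ctgf and Cyr61, the best known YAP/TAZ targets, did not pass (log2 fold changes 2.59 and 1.34, adjusted p = 0.0528 and 0.118) and were singled out after their values were seen, because in KO IntSCs their lowest and highest libraries were those of Vegfc. In KO IntSCs 1 to 5, Ctgf read 739, 233, 1520, 640 and 930 CPM. Library 2 was thus the lowest and library 3 the highest for Ctgf as for Vegfc, and both were so for Cyr61 as well (253 and 1332 CPM). WT IntSC library 6, with 3 Vegfc reads, was also the lowest WT library for Ctgf, at 25.9 CPM against 94.9 to 261 in the others, whereas Cyr61 was lowest in WT library 3 (166 CPM, against 191 in library 6). The called target genes had other orders in KO IntSCs: Crim1 was highest in library 2 (359 CPM) and lowest in library 3 (237 CPM), the reverse of Vegfc, and Amotl2 was lowest in library 2 (148 CPM) and highest in library 1 (231 CPM).

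Some markers of other cells moved with genotype. The summed level of 5 Paneth cell markers was 0.152 to 6.96 CPM in WT and 25.8 to 70.6 CPM in KO IntSCs, with all 5 detected in KO and Pnliprp2 at 0 in WT. This was not particular to IntSCs: in LECs the summed level of the same markers was 0 to 0.741 CPM in WT and 3.72 to 67.9 CPM in KO. That of 6 blood endothelial markers was 1225 to 2744 CPM in WT and 896 to 1254 CPM in KO IntSCs, that of 7 fibroblast markers was 9816 to 15112 and 6855 to 11552 CPM, and that of 6 smooth muscle markers was 1038 to 1804 and 1253 to 2338 CPM. Pdgfrb, a member of the fibroblast list and the gene whose promoter drives the Cre, went the other way: every KO IntSC library (694 to 1188 CPM) lay above every WT library (215 to 680 CPM), with a log2 fold change of 0.86 ± 0.23 (adjusted p = 0.0613). The ranges of the summed blood endothelial, fibroblast and smooth muscle lists overlapped between WT and KO. So did those of the LEC, pericyte, epithelial, leukocyte, macrophage and enteric glia and neuron lists. The epithelial ranges overlapped only through WT IntSC library 6, at 120 CPM. Every KO IntSC library (23.4 to 123 CPM) lay above the other WT libraries, with medians of 6.57 CPM in WT and 69.7 CPM in KO. The enteric glia and neuron ranges overlapped only through KO IntSC library 3, at 14.7 CPM. The other KO libraries lay below every WT library for that list. The part of any of these in the Vegfc difference was not tested. In sorted bulk cells, more RNA per cell and more cells of the kind that make it cannot be told apart.

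The make-up of the ligand reads differed between the IntSC groups. Vegfc made up 6.57 ± 3.35% (SD, n = 6) of the reads of the 5 ligand genes in WT IntSCs, from 0.519% to 9.91%, and 28.3 ± 9.09% (SD, n = 5) in KO IntSCs, from 14.6% to 39.3%. The groups did not overlap. The exact 95% interval of the lowest KO share, in library 2, was 12.3% to 17.1% of 871 reads, and that of the highest WT share, in library 4, was 8.0% to 12.1% of 868 reads. These intervals cover counting error only. The share uses the same Vegfc reads as the fold change above, so it is no separate support for a difference. The 5 shares are parts of a whole, so a larger Vegfc share makes the others smaller. Figf made up 16.5 ± 9.85% and 20.4 ± 6.27%, Vegfa 30.4 ± 7.97% and 25.3 ± 7.01%, Vegfb 23.8 ± 10.9% and 14.1 ± 3.64%, and Pgf 22.7 ± 10.7% and 11.9 ± 5.54%. Their ranges overlapped between WT and KO.

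**Figure D2:**
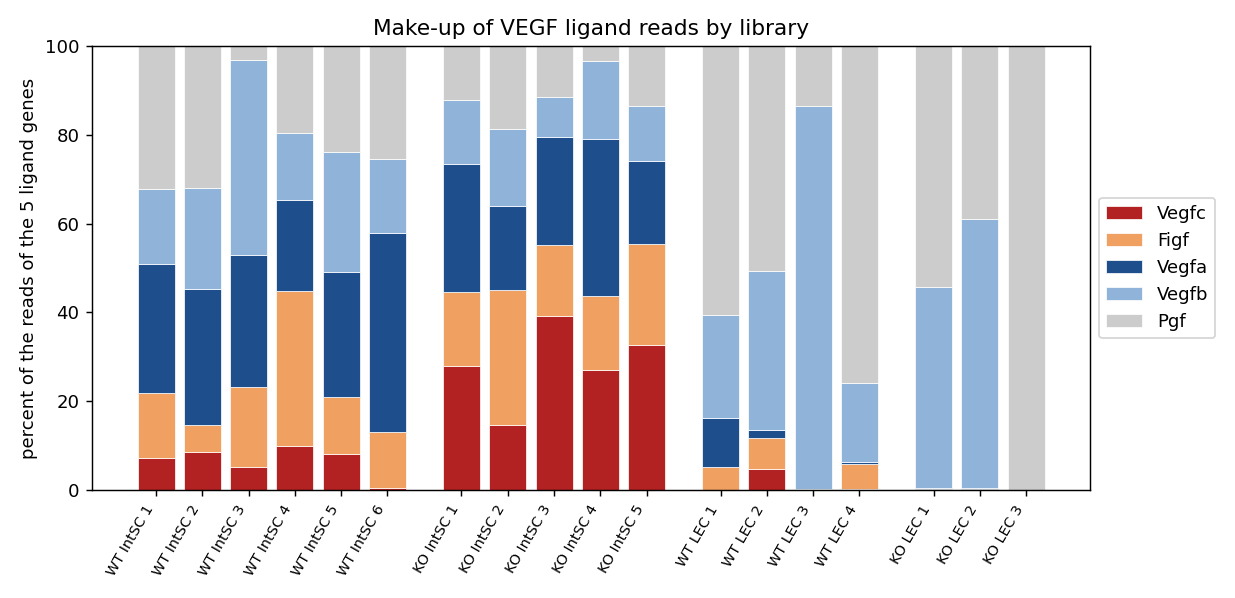
Percent of the reads of the 5 ligand genes (y axis) that each gene took in each of the 18 libraries (x axis), 1 stacked bar per library. Vegfc (bottom segment) takes 14.6% to 39.3% in the KO IntSCs and at most 9.91% in the WT IntSCs, and Vegfb and Pgf take most of each LEC bar.

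Per kilobase of annotated exon, Vegfc was the lowest ligand gene in WT IntSCs and the highest in KO IntSCs. In WT IntSCs the mean levels were 22.3 CPM per kb for Vegfb, 11.1 for Pgf, 10.2 for Vegfa, 10.1 for Figf and 3.97 for Vegfc, and 1.34 and 0.305 for Ccbe1 and Adamts3. In KO IntSCs Vegfc came first at 24.9 ± 13.4 (SD, n = 5) CPM per kb, ahead of Vegfb at 17.2 ± 5.71, Figf at 16.0 ± 1.79, Vegfa at 12.4 ± 6.02 and Pgf at 7.59 ± 3.02, with Ccbe1 at 1.39 and Adamts3 at 0.0994. In the WT order, neighbours from Vegfb to Vegfc differed by less than the larger of their 2 SDs, and in the KO order so did neighbours from Vegfc to Pgf. If the reads come from 3′ ends they do not grow with transcript length, so this scale is a description only.

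In WT mice, Vegfa was lower in LECs than in IntSCs. WT LEC libraries 1 to 4 read 8.95, 1.24, 0.281 and 0.600 CPM of Vegfa, all below the lowest WT IntSC library at 29.7 CPM, an order that 11.5% of the genes tested share. The log2 fold change was -3.97 ± 0.86 (SE), with an adjusted p of 0.00353, in a comparison where 2763 of 12203 genes passed (22.6%) and 12.3% were called lower in LECs. Leaving out WT LEC library 1 moved it to -5.95. That library also had the highest fibroblast marker sum of its group, 1934 CPM against 558 to 618 CPM in the others. Its part in the Vegfa level was not tested.

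The lymphangiogenic ligands and Ccbe1 were low in WT LECs, without passing the test. Figf read 4.28, 4.69, 0 and 7.0 CPM, all below the WT IntSC libraries, an order that 11.5% of the genes tested share. Its log2 fold change was -2.60 ± 1.02 (adjusted p = 0.0812). Vegfc read 0, 3.33, 0.0938 and 0.200 CPM, and 27 of its 30 reads came from library 2. Its log2 fold change was -3.42 ± 1.57 (adjusted p = 0.144), and -6.44 with an adjusted p of 0.0165 without that library. Ccbe1 was read in WT LEC library 4 alone, with 78 reads (7.80 CPM), and had -2.87 ± 1.59 (adjusted p = 0.235), or -9.76 with an adjusted p of 0.00112 without library 4. In both cases the library left out held most or all of the gene's WT LEC reads, so a larger difference without it was built in. These fits are no separate support for a difference. Other tools called some of these differences, along with more genes as a whole than the 2763 of edgeR. DESeq2, which called 3327 genes, called Vegfc (-3.48, adjusted p = 0.0219) and Figf (-2.67, adjusted p = 0.0111). limma-voom, which called 3640 genes, called both and Ccbe1.

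Vegfb and Pgf did not pass between WT LECs and WT IntSCs. Vegfb read 19.1, 24.6, 114.5 and 22.2 CPM (log2 fold change 0.35 ± 0.56, adjusted p = 0.741), and library 3 stood apart. Pgf read 49.5, 34.8, 18.1 and 94.1 CPM (0.62 ± 0.54, adjusted p = 0.494). The intervals ran from -0.84 to 1.53 and from -0.54 to 1.77, and both reach past 2-fold at the upper end. Of the 5 receptor genes 4 were called, against 22.6% of all genes. Flt4 (log2 fold change 8.56), Kdr (5.22) and Nrp2 (2.85) were higher in WT LECs, as 10.3% of genes were, and Nrp1 was lower (-3.31), as 12.3% were. Flt1 had -2.54 (adjusted p = 0.112). Flt4 read 1296 to 1560 CPM in WT LECs and 0.262 to 5.69 CPM in WT IntSCs. Adamts3 failed the filter and had an exact p of 0.143 (permutation test).

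In KO mice Vegfc and Ccbe1 were read in IntSCs and not in LECs. The 2329 Vegfc reads of KO IntSCs stood against 0 reads in all 3 KO LEC libraries, which allows up to 0.121 CPM (3 reads over the pooled group). On pooled reads Vegfc was thus at least 516-fold lower in KO LECs, and Ccbe1, with 573 against 0 reads, at least 127-fold lower. Vegfa had 1989 against 3 reads, a ratio of 440 with a 95% counting interval from 150.4 to 2137, and Figf had 1450 against 3 reads, a ratio of 321 with an interval from 109.6 to 1558. These pooled bounds and intervals leave out the spread between libraries. The 95% intervals derived from edgeR's test take that spread in. On the log2 scale their ends nearest to no difference were -6.44 for Vegfa and -5.93 for Figf, each resting on 3 KO LEC reads. For Vegfc and Ccbe1, with 0 KO LEC reads, edgeR's estimates and intervals have no fixed size and give no bound. All 4 passed edgeR (adjusted p = 2.30e-04, 0.00338, 1.71e-04 and 2.44e-04 for Vegfc, Ccbe1, Vegfa and Figf), where 3302 of 12758 genes did (25.9%) and 16.8% were called lower in LECs. All 3 KO LEC libraries lay below all 5 KO IntSC libraries for these 4 genes and for 20.9% of the genes tested. Pgf (1.44 ± 0.54, adjusted p = 0.0738) and Vegfb (0.16 ± 1.15, adjusted p = 0.948) did not. Pgf was called by DESeq2 (1.42, adjusted p = 0.0390) and without KO LEC library 2 (1.77, adjusted p = 0.0329). Adamts3 failed the filter and had an exact p of 0.750 (permutation test). All 5 receptor genes were called in KO mice, with Flt4 (6.97), Kdr (4.08) and Nrp2 (2.26) higher in LECs and Nrp1 (-5.63) and Flt1 (-4.21) lower.

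The fibroblast markers were low in LECs too. The mean level in LECs, as a percent of that in IntSCs, ran from 3.07% to 10.2% over the 7 fibroblast markers in WT and from 0.111% to 6.67% in KO. On the same measure Vegfa was at 6.31% in WT and 0.217% in KO, Figf at 16.4% and 0.330%, Vegfc at 9.32% and 0%, and Ccbe1 at 13.5% and 0%. How much of the LEC reads of these genes came from stromal cells was not tested. Vegfb (126% and 112%) and Pgf (153% and 271%) lay far above the range of the fibroblast markers in both genotypes.

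**Figure D3:**
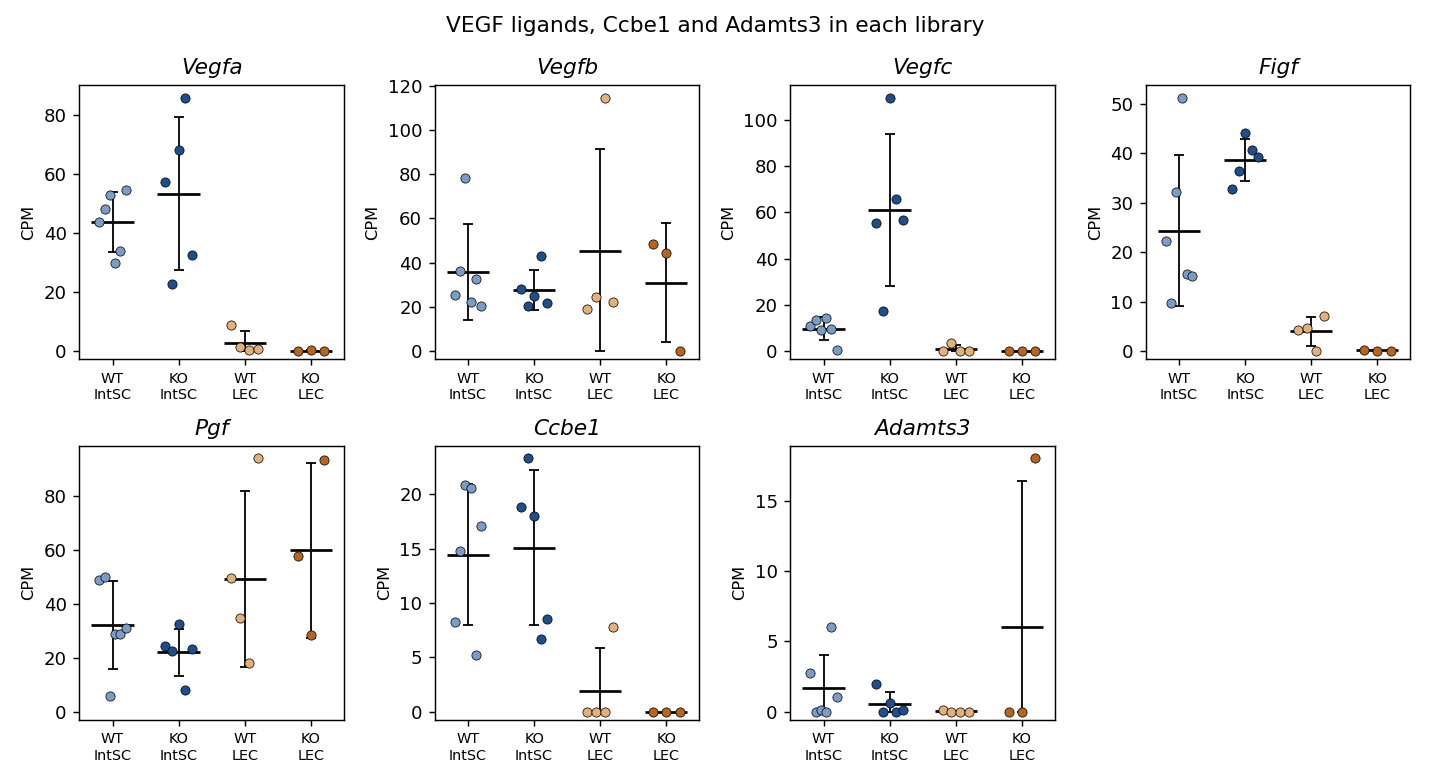
CPM (y axes, linear, 1 panel per gene) of the 5 ligand genes, Ccbe1 and Adamts3 in every library of the 4 groups (x axis). Points are libraries, horizontal lines are means, and error bars are 1 SD and stop at 0. Vegfc is at 17.4 to 109.7 CPM in KO IntSCs and at most 14.5 CPM in the other groups.

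Between KO and WT LECs, 7 of 10639 genes passed (0.0658%; 837 had an unadjusted p under 0.05), and none of the 3 tested ligand genes did. Pgf read 57.9, 28.4 and 93.1 CPM in KO LECs (log2 fold change 0.36 ± 0.63, adjusted p = 0.9999). Vegfb read 48.4, 44.3 and 0 CPM (-0.48 ± 1.23, adjusted p = 0.9999), with no read in KO LEC library 3. Pgf took all 750 ligand reads of that library.

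Figf had 3 reads in KO LECs and 153 in WT LECs, and its log2 fold change was -4.78 ± 2.63 (adjusted p = 0.772). Fitting all 4 groups together gave -4.84 with an adjusted p of 0.0340, in a fit that called 538 genes. Vegfa, Vegfc, Ccbe1 and Adamts3 failed the filter on low counts. Vegfa had 1, 2 and 0 reads in KO LECs and every KO library lay below every WT library, an order that 6.45% of the tested genes share, with the smallest exact p that 4 against 3 libraries allow (p = 0.0571, permutation test). The exact p-values of the permutation test were 0.229 for Vegfc, 1 for Ccbe1 and 0.857 for Adamts3. All 7 fibroblast markers also averaged less in KO than in WT LECs, by unequal amounts, from Pdgfra (11.8 and 0.414 CPM) and Col3a1 (143 and 16.8 CPM) through Col1a1 (81.9 and 33.7 CPM), Pdgfrb (28.3 and 10.6 CPM), Dcn (488 and 233 CPM) and Col1a2 (166 and 83.9 CPM) to Lum (10.6 and 10.04 CPM). Their part in the ligand levels was not tested. No gene was called among the 5 receptor genes (Flt1 -0.62, Kdr -0.39, Flt4 -0.22, Nrp1 -2.56 and Nrp2 -0.10), 9 tested proteases, 13 tested YAP/TAZ targets and 11 tested hypoxia genes in this comparison, whose medians were -0.39, 0.20, -0.70 and 0.38, against -0.03 over all genes.

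Adamts3 was read 145 times (18 CPM) in KO LEC library 3 and at most 1 time in each of the other 6 LEC libraries. The highest level in any IntSC library was 6.02 CPM. A single library thus holds most of the Adamts3 reads of the series, and no difference between groups was called for it.

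**Figure D4:**
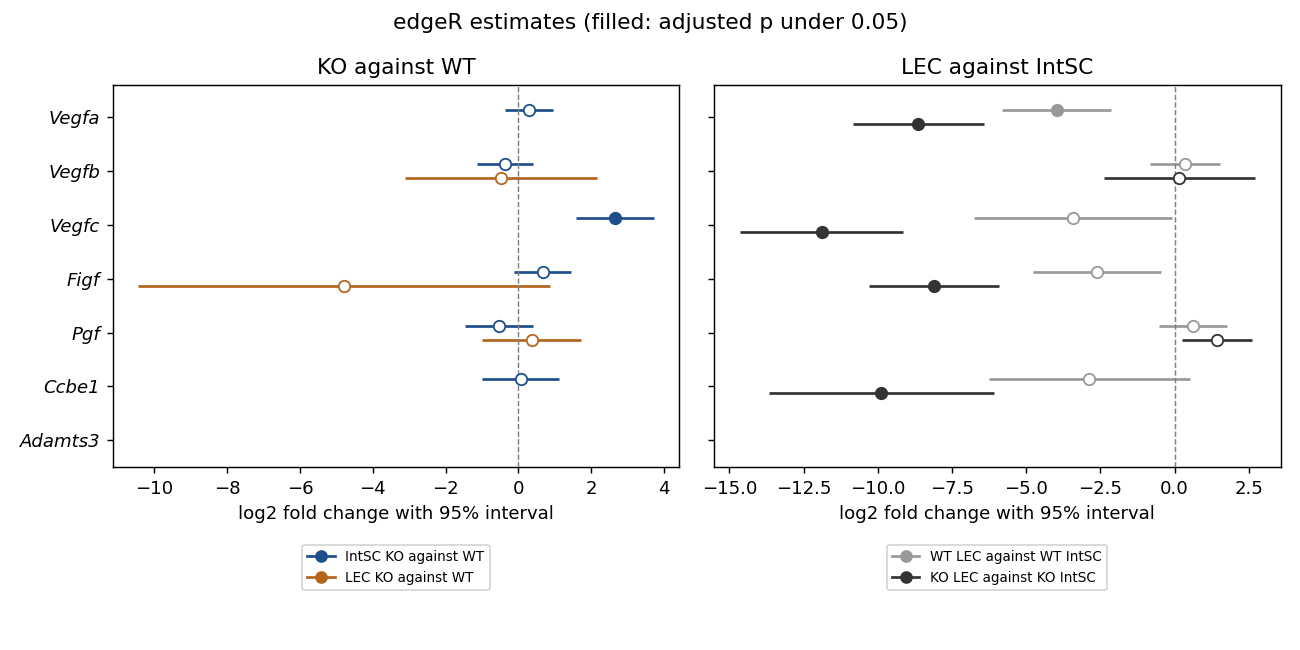
log2 fold change (x axes) with its 95% interval from edgeR for each gene (y axis), KO against WT on the left and LEC against IntSC on the right. Filled circles passed an adjusted p of 0.05; genes that failed the filter on low counts, Adamts3 among them, are left out, and estimates against groups with 0 to 3 reads have no fixed size. Vegfc is the only filled circle on the left, at 2.64 in IntSCs.

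The genotype difference of Vegfc was larger in IntSCs than in LECs. The test of this interaction of genotype and cell type, over all 18 libraries, gave 8.45 ± 2.08 on the log2 scale (adjusted p = 0.0390), where 238 of 14015 genes passed (1.70%), 199 of them in this direction (1.42%). The median over all genes was 0.24. The size has no fixed meaning because KO LECs held 0 Vegfc reads, and it rested on few reads: without WT LEC library 2 it was 5.45 (adjusted p = 0.143). The call was lost in 13 of the 18 fits that left out 1 library, whose adjusted p ran from 0.0171 to 0.143. Figf (5.51, adjusted p = 0.0521), Vegfa (4.66, adjusted p = 0.0569), Ccbe1 (6.99, adjusted p = 0.159), Adamts3 (-8.80, adjusted p = 0.175), Pgf (-0.83, adjusted p = 0.764) and Vegfb (0.17, adjusted p = 0.9999) did not pass, although DESeq2 called Figf (5.58, adjusted p = 0.00156), Vegfa (4.72, adjusted p = 0.00907) and Ccbe1 (6.38, adjusted p = 0.0489). Pcsk6 passed in the other direction (-1.51, adjusted p = 0.0201), as did 0.278% of genes, with WT LECs at 503 to 1015 CPM and KO LECs at 815 to 1029 CPM. None of the 5 receptor genes passed (Flt1 1.67, Kdr 1.13, Flt4 1.58, Nrp1 2.32 and Nrp2 0.58, adjusted p from 0.211 to 0.740).

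The genes whose levels were most like those of each of the 7 over the 18 libraries were described by Pearson's correlation of log2(CPM + 1) among 14014 genes, without a test, since the libraries share group and depth. For Vegfc they were Ptprj (r = 0.939), Acot1 (0.933) and Id4 (0.913), which all averaged more in KO than in WT IntSCs and under 1 CPM in LECs (Id4 64.7 against 19.7 CPM in IntSCs). For Vegfa they were Rab34 (0.982), Col6a4 (0.981) and Hoxc4 (0.980), for Figf Ddx26b (0.972), Rgma (0.958) and Cpxm1 (0.947), and for Ccbe1 Meis1 (0.962), Snhg11 (0.953) and Pcolce2 (0.949). Over these 3 genes, the neighbours averaged 21.4 to 162 CPM in the IntSC groups and at most 19.0 CPM in the LEC groups. For Vegfb they were Trim47 (0.890), Cat (0.882) and Papss1 (0.874), and for Pgf Sike1 (0.834), Rae1 (0.809) and Gas2l1 (0.791). After the group means were taken away, the deviations of Vegfc were most like those of Hspa4 (0.865), Ccdc38 (0.839) and Fam206a (0.837), none of them among its nearest 3 on levels. For Adamts3, whose reads came largely from 1 library, the nearest were Pydc4 (0.948), Slc17a7 (0.921) and Tgfb1 (0.870).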

How the data were processed

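RNA of FACS sorted cells was sequenced on an Illumina NextSeq from QuantSeq (Lexogen) libraries, read here as 3′ end libraries. The deposited files hold raw counts, not normalised, in 1 table of 23282 gene symbol rows for each library. The submitters' processing notes name Bowtie2, edgeR and mm10, and the study's methods name TopHat and Cufflinks. The counting program and annotation are not given in the sources used here.

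From these counts, symbols on more than 1 row (35) were summed. Each comparison was fitted over its own groups, and the interaction over all 4, with edgeR 4.0.16 in R 4.3.3 (TMM factors, filterByExpr, robust quasi-likelihood test, Benjamini-Hochberg adjustment over all genes tested, threshold 0.05). SEs and 95% intervals were derived from the log2 fold change and that test's statistic. The 7 tests of genes under the filter were two-sided exact permutation tests (scipy 1.17.1) and are unadjusted. A count of 3 corresponds to 0.284 to 0.560 CPM in a library, and floors and intervals cover counting error only, since reads copied by PCR and not marked by molecular identifiers can stem from 1 molecule. Scripts were tested on simulated data. Alternatives were RLE and upper-quartile factors, other filters, DESeq2 1.42.0, limma-voom 3.58.1, a replicate block, 1 fit of all groups, each library left out, and, chosen after seeing the data, counts without Rn45s, the ribosomal RNA precursor.

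The genes described, the gene lists, the tests and the rule for the genes named were chosen with earlier results of these data known. All 7 genes are named in every comparison, list genes where they pass a genotype comparison, VEGF receptors always, and per gene the 3 genes most alike in level. Exon lengths and gene bounds are from GENCODE vM21, promoters from RefSeq.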

Additional observations from a re-analysis of the deposited data

Results flagged for a closer look

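Of 26 sets of 4 to 6 libraries examined for a library apart from the rest (Dixon's test at the 95% level), 6 held one. Chance would give about 1.3 if the values were independent and normally distributed. These sets need not be: some hold values at or near 0 CPM, and both Vegfc flags below rest on the same 27 reads. The single library was always the highest of its group. Vegfa read 8.95 CPM in WT LEC library 1 and 0.281 to 1.24 CPM in the other 3. Vegfb read 78.3 CPM in WT IntSC library 3 (20.5 to 36.0 CPM in the others) and 114.5 CPM in WT LEC library 3 (19.1 to 24.6 CPM in the others). Vegfc read 3.33 CPM in WT LEC library 2 (at most 0.200 CPM in the others) and took 4.86% of the ligand reads there (at most 0.161% in the others). Ccbe1 read 7.80 CPM in WT LEC library 4 and 0 in the others.

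The genotype difference of Vegfc differed between IntSCs and LECs by 8.45 on the log2 scale in edgeR's interaction test, with Vegfc higher in all 5 KO than in all 6 WT IntSC libraries and at 0 in all 3 KO LEC libraries.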

How the results depend on the processing

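Numbers in the labels gave no clear pairing of the libraries: no same-numbered pair had correlated deviations over 0.1 (range -0.058 to 0.056), and every library correlated best with its own number in no comparison. Between WT LECs and WT IntSCs, however, 3 of 4 pairs correlated best with their own number. Those 4 pairs stood at 0.022 to 0.038, against means of -0.006 to -0.004 with other numbers, so shared mice in this comparison cannot be told from these values. With the replicate block, Vegfc in IntSCs was 2.23 (adjusted p = 0.0299). The block gave 3 calls between LECs, 1596 and 895 between cell types in WT and KO, and 16 for the interaction. It moved Ccbe1 in the KO cell type comparison to -10.3 (adjusted p = 0.145), the Vegfc interaction to 6.13 (adjusted p = 0.749), and turned Vegfb to -0.096 (WT) and -0.61 (KO) between cell types.

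DESeq2 called 376 genes in IntSCs, 309 in LECs and 1023 for the interaction. limma-voom called 12 in LECs and 143 for the interaction, and gave 2.72 (adjusted p = 0.0914) for Vegfc in IntSCs, 4.99 (adjusted p = 0.242) for its interaction and -2.32 for Vegfb between KO cell types. A single fit of all groups called 27 genes in IntSCs and 538 in LECs, with Vegfc in IntSCs at 2.64 (adjusted p = 0.452). A looser filter called 32 and a mean count of at least 10 called 20 in LECs. Factors by RLE or upper quartile and leaving out Rn45s changed no call or direction of the 7 genes.

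With 1 library left out, counts were 99 to 186 in IntSCs (99 without KO IntSC library 3, 101 without 2, 105 without 1, 121 without KO 5 or WT 1), 0 to 16 in LECs (1, 0 and 2 without WT LEC libraries 2, 3 and 4, and 3, 16 and 4 without KO LEC libraries 1, 2 and 3), 2233 to 2889 and 2557 to 3320 between cell types in WT and KO, and 161 to 461 for the interaction (461 and 379 without KO LEC libraries 2 and 3). Vegfc ran from 2.32 to 2.88 in IntSCs and from 5.45 to 8.84 for the interaction. Signs turned for Vegfb (-0.60 to 0.022 in IntSCs, -0.94 to 0.54 in LECs, -0.70 to 0.72 and -0.32 to 0.74 between cell types in WT and KO, -0.87 to 0.66 for the interaction), Ccbe1 in IntSCs (-0.15 to 0.24) and Pgf in LECs (-0.12 to 0.87), none called. The cause of these changes was not tested. In all, 584 of 672 alternative values kept their call and direction or stayed within 1.5-fold. A gene not called counts as unchanged while it stays uncalled with its sign, so this total does not measure how stable the calls are. The Vegfc interaction kept its call in 5 of the 18 fits that left out 1 library. Few reads stood behind Adamts3 in every group, and behind Vegfa, Vegfc, Figf and Ccbe1 in LECs, whose libraries had 6900493 to 10549233 counts.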

Other observations

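Among the reads of the 3 ligand genes Vegfa, Vegfc and Figf alone, Vegfc made up 12.6% in WT IntSCs, 37.7% in KO IntSCs and 15.9% in WT LECs on average, and 0% in the 2 KO LEC libraries that held any of them. The WT LEC mean rests on few reads: the 4 libraries stood at 0%, 36%, 25% (1 of 4 reads) and 2.56%, and the mean without library 2 was 9.19%.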
